A study of Mus musculus with 8 samples.

Results

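Autophagy receptors and the Atg8 family genes were examined in the livers of mice with hepatocytes that lack thioredoxin reductase 1 (Txnrd1). The members were the receptor genes Sqstm1, Nbr1 and Optn, the Atg8 family genes Map1lc3a, Map1lc3b, Gabarap, Gabarapl1 and Gabarapl2, the kinase gene Ulk1, and Becn1. They were chosen by name, and each probe set annotated to a member was taken. Of the 10 members, 9 were measured, by 22 of the 45101 probe sets on the array, and Optn was not analysed here. The 9 are among 18193 genes to which a probe set could be assigned.

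Whole-liver RNA from 8 young adult male mice was hybridized to expression arrays, 1 array per animal. The controls were 4 txnrd1 cond/+ albCre0 mice (animals 70, 71, 80 and 82), with 1 conditional and 1 wild-type Txnrd1 allele and no Cre transgene. The experimental mice were 4 txnrd1 cond/- albCre1 animals (69, 72, 73 and 81), with 1 conditional allele, 1 null allele and a Cre transgene driven by the albumin promoter. That promoter is active in hepatocytes, so the other cells of these livers keep a conditional allele beside the null one, and loss of Txnrd1 cannot be told apart from the presence of Cre. All 8 mice carried 1 conditional allele and had been housed singly for 10 days on a cycle of 14 h light and 10 h dark. The background strain was not given in the sources used here.

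Autophagy encloses cytoplasm in a double membrane, the autophagosome, and delivers it to the lysosome. The Ulk1 kinase starts the process, and Beclin 1, the product of Becn1, works in the lipid kinase complex that marks the forming membrane. Proteins of the Atg8 family, which fall into an LC3 and a GABARAP subfamily, are then joined to lipid in that membrane. Receptors such as p62 (from Sqstm1) bind ubiquitin on cargo with one part and Atg8 proteins with another. In liver, p62 is also known for binding Keap1, the adaptor that holds the transcription factor Nrf2 in check, and Sqstm1 is a known Nrf2 target gene.

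RefSeq promoter windows are shown for 3 members on which the results below turn: Gabarapl1, its close relative Gabarapl2, and Sqstm1. Each is the 250 bases before the annotated start, read 5′ to 3′ along the gene's strand, in build GRCm38.p6. The windows lie at chr6:129532942-129533191 on the plus strand for Gabarapl1, chr8:111940453-111940702 on the plus strand for Gabarapl2, and chr11:50210821-50211070 on the minus strand for Sqstm1. Capitals mark a match to the core of the antioxidant response element to which Nrf2 binds, TGANNNNGC, read here on the opposite strand.
Gabarapl1: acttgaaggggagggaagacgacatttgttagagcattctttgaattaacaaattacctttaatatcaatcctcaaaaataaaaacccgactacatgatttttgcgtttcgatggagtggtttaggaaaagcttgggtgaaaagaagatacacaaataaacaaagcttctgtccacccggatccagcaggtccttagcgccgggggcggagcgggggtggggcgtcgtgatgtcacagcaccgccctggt
Gabarapl2: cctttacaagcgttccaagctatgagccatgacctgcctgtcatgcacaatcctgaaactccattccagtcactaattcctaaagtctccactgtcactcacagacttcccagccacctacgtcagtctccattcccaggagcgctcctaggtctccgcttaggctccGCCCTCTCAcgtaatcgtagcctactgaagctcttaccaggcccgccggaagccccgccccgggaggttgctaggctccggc
Sqstm1: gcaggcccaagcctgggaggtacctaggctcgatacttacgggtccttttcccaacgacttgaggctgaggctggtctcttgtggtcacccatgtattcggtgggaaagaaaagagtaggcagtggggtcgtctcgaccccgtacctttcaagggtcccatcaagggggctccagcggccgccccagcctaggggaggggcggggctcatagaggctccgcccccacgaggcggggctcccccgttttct

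The table held 9 such windows for 8 members, Nbr1 having 2. On either strand, TGANNNNGC occurred in 35.2% of all 32851 windows and in those of Gabarapl2, Map1lc3b and Optn. No member window held CACGTG, the E-box core found at lysosomal genes (6.02% of all windows), TGTTTAC, a FOXO core (3.17%), TGATGNAA, an ATF4 core (3.45%), or TATAAA (12.4%). These are matches of letters in a short stretch, and the absence of a match says only that the letters are not in it.

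The deposited values were ratios, each close to the probe set's signal over its median across the 8 arrays, so a value of 1 is the middle liver and levels cannot be compared between genes. Gene values are the means of log2 ratios over a gene's probe sets, given back as ratios. None of the 3 probe sets of Txnrd1, the targeted gene, passed the adjusted test in the limma fit, and all 3 had an unadjusted p of at most 0.05, with 1 higher and 2 lower in cond/- livers. The control and experimental means (SD, n = 4 each) were 0.670 ± 0.201 and 1.43 ± 0.405 for 1421529_a_at, 1.21 ± 0.238 and 0.748 ± 0.174 for 1424486_a_at, and 1.18 ± 0.125 and 0.891 ± 0.0965 for 1424487_x_at. Their places relative to the deleted part were not determined here, so they do not check the genotypes. The study itself reported conversion of the conditional allele and reduced functional Txnrd1 mRNA and protein in cond/- albCre1 livers. The Nrf2 target Nqo1, a quinone reductase, rose 5.97-fold in cond/- livers (limma adjusted p = 0.00585). Pancreatic transcripts stood apart in control animal 71, with a median log2 ratio of 4.32 over 5 marker genes against -0.23 to 0.12 in the other 7 livers.

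None of the 9 member genes passed the test for a genotype difference, an adjusted p of at most 0.05 with a 1.5-fold difference in limma, which 0.0824% of all genes passed. None of the 22 probe sets passed either, against 0.0266% of all probe sets. At an unadjusted p of at most 0.05, which 2.32% of genes reached, the count was 1 gene (Gabarapl1) and 2 probe sets (both of Gabarapl1). Its 4 cond/- livers all lay above the 4 controls, as did those of 1.13% of genes, while no member lay wholly below (0.583% of genes). No member gene differed 1.5-fold, as 1.06% of genes did, or did so with an unadjusted p of at most 0.05, as 0.654% did, and 1 probe set differed 1.5-fold, against 0.935% of all probe sets. The median log2 difference, cond/- minus cond/+, was 0.10 over the members and 0.00 over all genes, with 7 members above 0 and 2 below, and 51.1% of all genes above 0. For 6 members, Nbr1, Map1lc3b, Gabarap, Gabarapl2, Ulk1 and Becn1, the 95% interval lay within 1.5-fold in both directions. In whole-liver RNA, fewer cells of a type and less RNA per cell cannot be told apart.

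**Figure D1:**
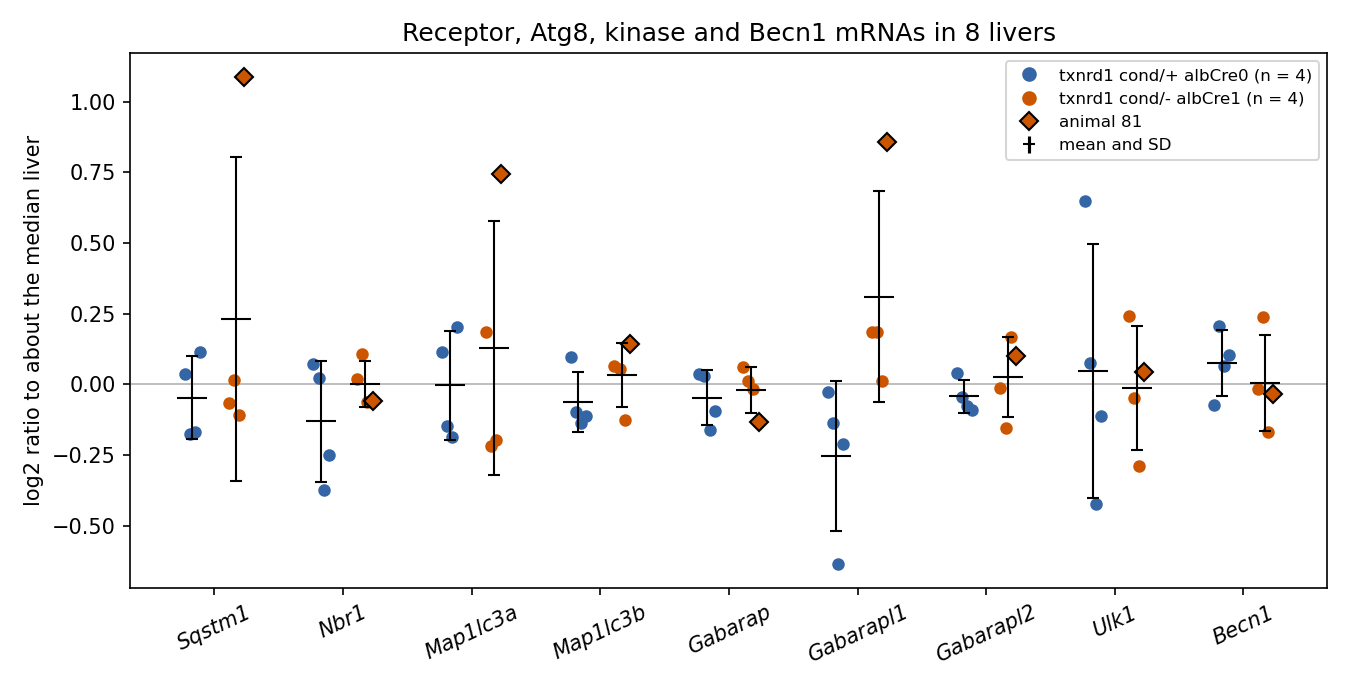
Log2 ratio to about the median liver (y axis) of 9 genes (x axis) in 4 txnrd1 cond/+ albCre0 and 4 txnrd1 cond/- albCre1 livers, 1 point per animal, with the mean and SD of each group. The Gabarapl1 points of the 2 groups do not overlap, and animal 81 (diamond) is well above the other 7 livers for Sqstm1, Map1lc3a and Gabarapl1.

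Sqstm1 encodes p62, the receptor that carries ubiquitin-marked cargo to Atg8 proteins. Its ratios were 1.03, 0.886, 0.891 and 1.08 in cond/+ animals 70, 71, 80 and 82, and 0.955, 1.01, 0.929 and 2.12 in cond/- animals 69, 72, 73 and 81. A single cond/- liver, that of animal 81, was high, and the other 3 lay within the range of the controls. The means were 0.972 ± 0.0989 and 1.25 ± 0.581 (SD, n = 4 each). The log2 difference was 0.28 with a 95% interval from -0.27 to 0.83 (limma adjusted p = 1.00, unadjusted p = 0.284). Without animal 81 it was -0.01, and without animals 71 and 81 it was -0.05. Both probe sets placed animal 81 highest, at 2.37 for 1444021_at and 1.90 for 1450957_a_at, where the suffix _a marks probes common to alternate transcripts of 1 gene.

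Nbr1 encodes a second ubiquitin-binding receptor that acts with p62. Its ratios were 1.05, 1.02, 0.772 and 0.842 in the cond/+ livers and 1.01, 1.08, 0.958 and 0.960 in the cond/- livers, in the same order of animals. The groups overlapped, and the low values were those of control animals 80 and 82. The log2 difference was 0.13 with a 95% interval from -0.14 to 0.41 (limma unadjusted p = 0.304). Animal 81 was not high for Nbr1.

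Map1lc3a and Map1lc3b encode LC3A and LC3B, the latter being the usual marker of autophagosomes. The Map1lc3a ratios were 1.08, 0.903, 0.878 and 1.15 in cond/+ livers and 1.14, 0.860, 0.872 and 1.67 in cond/- livers. As for Sqstm1, animal 81 was highest and the other 3 cond/- livers lay among the controls or just below them. The log2 difference of Map1lc3a was 0.13 with a 95% interval from -0.34 to 0.60 (limma unadjusted p = 0.542), and it was -0.07 without animal 81 and -0.12 without animals 71 and 81. Its probe sets gave 1.77 (1447883_x_at, where _x marks probes that may also match other sequences) and 1.58 (1451290_at) in animal 81. The Map1lc3b ratios were 1.07, 0.936, 0.909 and 0.926 in cond/+ livers and 1.05, 1.04, 0.916 and 1.10 in cond/- livers. Its groups overlapped and its log2 difference was 0.10 with a 95% interval from -0.13 to 0.33 (limma unadjusted p = 0.375). The 4 Map1lc3b probe sets differed in direction, from -0.11 to 0.26 on the log2 scale.

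Gabarap, the gene for which the other Atg8 subfamily is named, was measured by 1 probe set. Its ratios were 1.03, 1.02, 0.895 and 0.937 in cond/+ livers and 1.04, 1.01, 0.988 and 0.913 in cond/- livers. The groups overlapped, with a log2 difference of 0.03 and a 95% interval from -0.19 to 0.24 (limma unadjusted p = 0.778). Gabarapl2, which encodes GATE-16, had ratios of 1.03, 0.970, 0.948 and 0.940 in cond/+ livers and 0.992, 0.898, 1.12 and 1.07 in cond/- livers. Those groups overlapped too, and the log2 difference was 0.07 with a 95% interval from -0.16 to 0.30 (limma unadjusted p = 0.523).

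Gabarapl1 encodes the remaining GABARAP-subfamily protein, also called GEC1. Its ratios were 0.981, 0.909, 0.644 and 0.863 in cond/+ animals 70, 71, 80 and 82, and 1.14, 1.14, 1.01 and 1.81 in cond/- animals 69, 72, 73 and 81. Each cond/- liver was above each control, with animal 81 far the highest, animal 80 far the lowest, and only a narrow step between animal 70 and animal 73. The means were 0.849 ± 0.145 and 1.27 ± 0.363 (SD, n = 4 each). The fold was 1.48 with a 95% interval from 1.09 to 2.01, a log2 difference of 0.56. The exact permutation test gave a two-sided p = 0.0286, the smallest that 4 against 4 animals can give. Groups without overlap always give this value, so it adds nothing to the lack of overlap. For the other members the same test gave p from 0.343 to 0.857, without adjustment. The limma unadjusted p was 0.0179 and the adjusted p over all genes was 1.00, so the difference did not pass. The fold was 1.30 without animal 81 and 1.35 without animal 80, and without animal 80 the unadjusted limma p was 0.0519.

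Both Gabarapl1 probe sets had an unadjusted p of at most 0.05, as did 1.82% of all probe sets in either direction and 1.26% in this one. The deposited ratios of 1416418_at were 1.01, 0.876, 0.651 and 0.774 in cond/+ livers and 1.10, 1.10, 0.983 and 2.07 in cond/- livers, and the groups overlapped where animal 73 lay just under animal 70. Its fold of 1.54 with a limma unadjusted p of 0.0271 made it the only member probe set at the study's thresholds of fold and p without adjustment, which 0.562% of probe sets reached. The ratios of 1416419_s_at, where _s marks probes shared by several transcripts, were 0.955, 0.943, 0.638 and 0.963 in cond/+ livers and 1.18, 1.17, 1.035 and 1.58 in cond/- livers. These groups did not overlap, as for 0.897% of probe sets in this direction, and the fold was 1.42 (limma unadjusted p = 0.0183, adjusted p = 1.00).

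**Figure D2:**
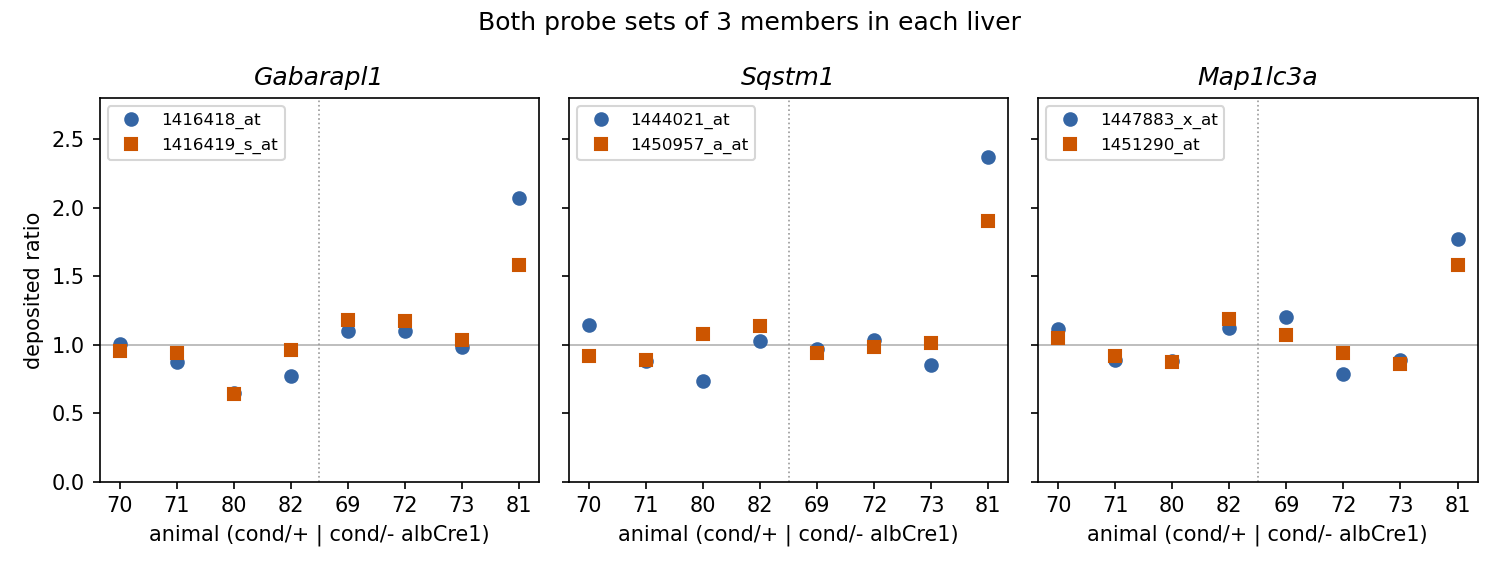
Deposited ratio (y axis, linear) of both probe sets of Gabarapl1, Sqstm1 and Map1lc3a in each of 8 livers (x axis, animal numbers, with controls left of the dotted line). Animal 81 is highest for all 6 probe sets, from 1.58 to 2.37, and animal 80 is lowest for both Gabarapl1 probe sets.

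Ulk1 encodes the kinase that starts autophagy. Its ratios were 1.57, 1.055, 0.746 and 0.925 in cond/+ livers and 1.18, 0.968, 0.819 and 1.03 in cond/- livers. The controls spread more widely than the cond/- livers and held both the highest and the lowest value. The log2 difference was -0.06 with a 95% interval from -0.54 to 0.42 (limma unadjusted p = 0.785). Becn1 encodes Beclin 1 of the lipid kinase complex, and its ratios were 0.950, 1.15, 1.05 and 1.07 in cond/+ livers and 0.989, 1.18, 0.891 and 0.976 in cond/- livers. Its groups overlapped, with a log2 difference of -0.07 and a 95% interval from -0.33 to 0.19 (limma unadjusted p = 0.553).

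**Figure D3:**
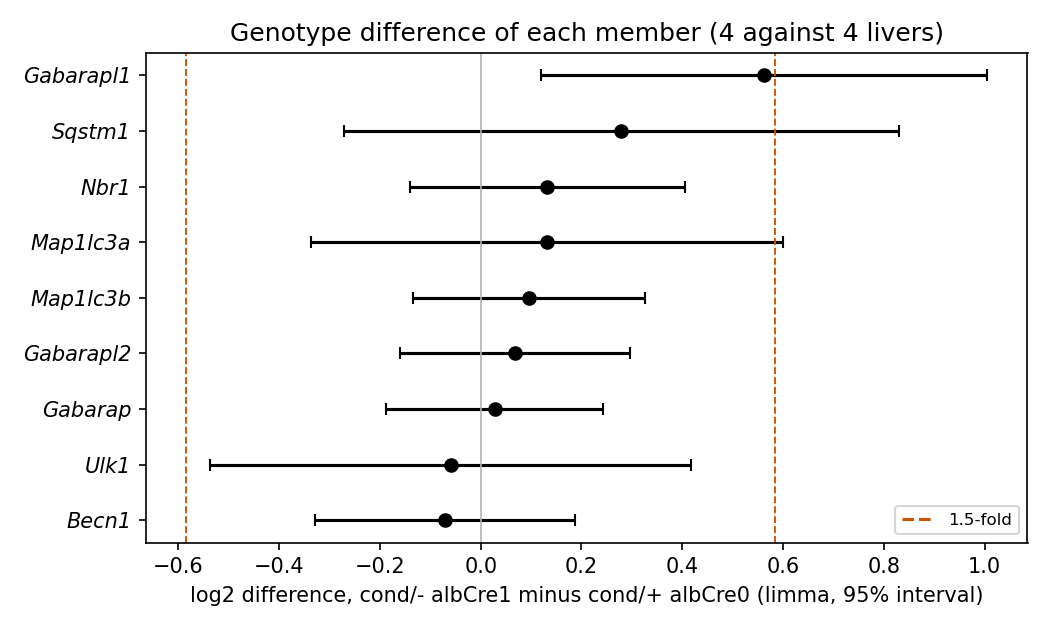
Log2 difference of each gene, txnrd1 cond/- albCre1 minus txnrd1 cond/+ albCre0 (x axis), with its 95% interval from limma, for 4 against 4 livers. The interval of Gabarapl1 lies above 0 (0.12 to 1.01), those of the other 8 genes include 0, and the dashed lines mark a 1.5-fold difference.

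Close relatives were then compared within each animal, by permuting the genotypes over the 8 livers, for 3 pairs. The genotype difference of Gabarapl1 exceeded that of Gabarapl2 by 0.50 on the log2 scale with a 95% interval from -0.05 to 1.04 (exact permutation p = 0.114, 0.343 adjusted over the 3 pairs). For Sqstm1 against Nbr1 it was 0.15 with an interval from -0.66 to 0.95 (exact permutation p = 0.83, adjusted p = 0.914). For Map1lc3a against Map1lc3b it was 0.04 with an interval from -0.47 to 0.54 (exact permutation p = 0.914, adjusted p = 0.914). No pair passed, which does not show that the relatives act alike.

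Animal 81 set several member values. It was the highest of the 8 livers for 4 of the 9 genes (Sqstm1, Map1lc3a, Map1lc3b and Gabarapl1) and for 15% of all genes. Over probe sets it was highest for 8 of the 22 and for 13.1% of all. It exceeded the mean of the other 3 cond/- livers 2.20-fold for Sqstm1, 1.76-fold for Map1lc3a and 1.66-fold for Gabarapl1, and between 0.901-fold and 1.11-fold for the other 6 members. The same liver was highest for 4 of 5 Nrf2 target genes on a list. Its genes were well known as targets or picked by the study on these same samples, so the list is not independent of these data. Of the 4 genes, Hmox1 (heme oxygenase 1) was 5.60-fold, Srxn1 (sulfiredoxin) 2.07-fold, Gclc 2.07-fold and Gclm 1.65-fold above the other 3 cond/- livers. Nqo1 was at 0.913-fold. Between the genotypes, Srxn1 (2.10-fold), Gclc (2.07-fold) and Gclm (1.59-fold) had all 4 cond/- livers above all controls, with limma unadjusted p from 0.00105 to 0.00616. Hmox1 overlapped (limma unadjusted p = 0.125), and Nqo1 alone of the 5 passed the adjusted test. Gclc and Gclm encode the subunits of the enzyme that begins glutathione synthesis. Tbk1 and Prkaa1, not on that target list, were also highest in animal 81, at 1.76-fold and 1.88-fold above the other 3 cond/- livers. Over 7 measured hepatocyte markers the median log2 ratio was -0.05 in animal 81, the lowest of the 8 livers. This median lay between -0.01 and 0.09 in controls and reached 0.11 in cond/- livers. Among these markers, the urea cycle gene Ass1 was at -2.02 and Tat, a tyrosine-degrading enzyme, at -0.96 in animal 81. The part of these differences in the member values was not tested. The values of Hmox1, Srxn1, Gclc, Tbk1, Prkaa1, Ass1 and Tat were chosen for mention after they were seen.

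Control animal 80 was the lowest of the 8 livers for 5 members (Nbr1, Map1lc3b, Gabarap, Gabarapl1 and Ulk1) and for 15.9% of all genes. Animal 71, the liver with pancreatic transcripts, was the lowest for 1 member and the highest for none. Over the other cell types that a liver holds, no marker of Kupffer cells (6 genes measured), endothelial cells (6), stellate cells (6), cholangiocytes (4), neutrophils (5) or lymphocytes (5) passed the adjusted test or had an unadjusted limma p of at most 0.05. Their list medians differed between genotypes by -0.14 to 0.01 on the log2 scale, with no endothelial or stellate marker above 0. In animal 81 the list medians of log2 ratios were, in the same order, 0.04, -0.01, -0.38, -0.10, -0.73 and 0.04. Those of stellate cells and neutrophils were the lowest of the 8 livers, and their part in the member values was not tested. The 5 pancreatic markers differed by a median of -1.01, the high values being those of animal 71.

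The pattern of Gabarapl1 over the 8 livers, each gene centred on its mean, was compared with those of 18191 other genes by the root mean square difference of log2 values. The nearest were Klhl24 (0.132), Gclm (0.135), Gsto1 (0.137), Zfp655 (0.138) and Nudt12 (0.144). In each of these, animal 81 was the highest liver and animal 80 the lowest. The same holds for Gabarapl1, and the genes were picked for likeness to it, so the choice itself favours these extremes.

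The other genes of the pathway were taken from 9 lists that follow its steps, with 103 of 107 genes measured. None passed the adjusted test, 3 were higher and 1 lower at an unadjusted p of at most 0.05, and 1.71% of all genes were higher and 0.605% lower at that level. The median log2 difference over the 103 was 0.05, and 64 of them (62.1%) were above 0, against 51.1% of all genes. Animal 81 was the highest liver for 34 of the 103 and for 15% of all genes.

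At the start of the pathway, none of the 4 genes Atg13, Rb1cc1, Atg101 and Ulk2 reached an unadjusted p of 0.05, and the nearest was Rb1cc1, the scaffold of the Ulk1 complex, at a log2 difference of 0.13 (limma unadjusted p = 0.395). Of 7 genes of the lipid kinase complex in which Beclin 1 works, the nearest was Atg14, at 0.35 (limma unadjusted p = 0.0800). Of 11 genes that supply membrane, Wdr45, which binds the marked lipid, was 1.31-fold higher (limma unadjusted p = 0.0434, adjusted p = 1.00), with animal 81 highest and animal 80 lowest, and its p was above 0.05 without animal 69, 71, 80 or 81. Of 11 genes that process Atg8 proteins and join them to lipid, the nearest was Atg10, an enzyme that joins Atg12 to Atg5, at 0.30 (limma unadjusted p = 0.101). No conjugation gene passed, as none of the Atg8 genes did.

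Of 17 other receptors, Calcoco1 was 1.22-fold higher (limma unadjusted p = 0.0403, adjusted p = 1.00). Its ratios were 0.985, 0.942, 0.732 and 0.973 in cond/+ livers and 1.16, 1.11, 0.993 and 1.15 in cond/- livers, without overlap, and control animal 80 stood well below the other controls. Its unadjusted p was above 0.05 without animal 69, 71, 72, 80 or 81. Of 14 genes for fusion with the lysosome, the nearest was Vps39, a subunit of the tethering complex, at 0.13 (limma unadjusted p = 0.245).

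Among 17 lysosomal genes, Hexa, a subunit of the enzyme that degrades gangliosides, had the smallest p of the 103. Its ratios were 0.947, 0.768, 0.792 and 0.602 in cond/+ livers and 1.36, 1.05, 1.25 and 1.58 in cond/- livers. The groups did not overlap and no animal stood apart. The difference was 1.69-fold with a 95% interval from 1.31 to 2.19. Its limma unadjusted p was 0.00111 and its adjusted p was 0.494, so it did not pass. The median over the lysosomal list was 0.01 on the log2 scale.

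Of 16 upstream regulators, the nearest was Prkaa2, a catalytic subunit of the AMP-activated kinase, at 0.39 (limma unadjusted p = 0.0503). Of 6 genes listed with p62 as its partners or, for Nrf2, through Keap1, Nfe2l2, which encodes Nrf2 itself, was lower. Its ratios were 1.33, 1.02, 1.05 and 1.22 in cond/+ livers and 0.917, 0.845, 0.754 and 1.12 in cond/- livers. These are mRNA values, and the study reported more Nrf2 protein in liver nuclei of female mice of the experimental genotype. For Nfe2l2 the groups overlapped through animal 81, and the log2 difference was -0.35 (limma unadjusted p = 0.0365, adjusted p = 1.00). The unadjusted p was above 0.05 without animal 69, 70, 72, 73 or 82. Keap1, the adaptor that p62 binds, was at 0.11 with a 95% interval from -0.29 to 0.52 (limma unadjusted p = 0.553).

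**Figure D4:**
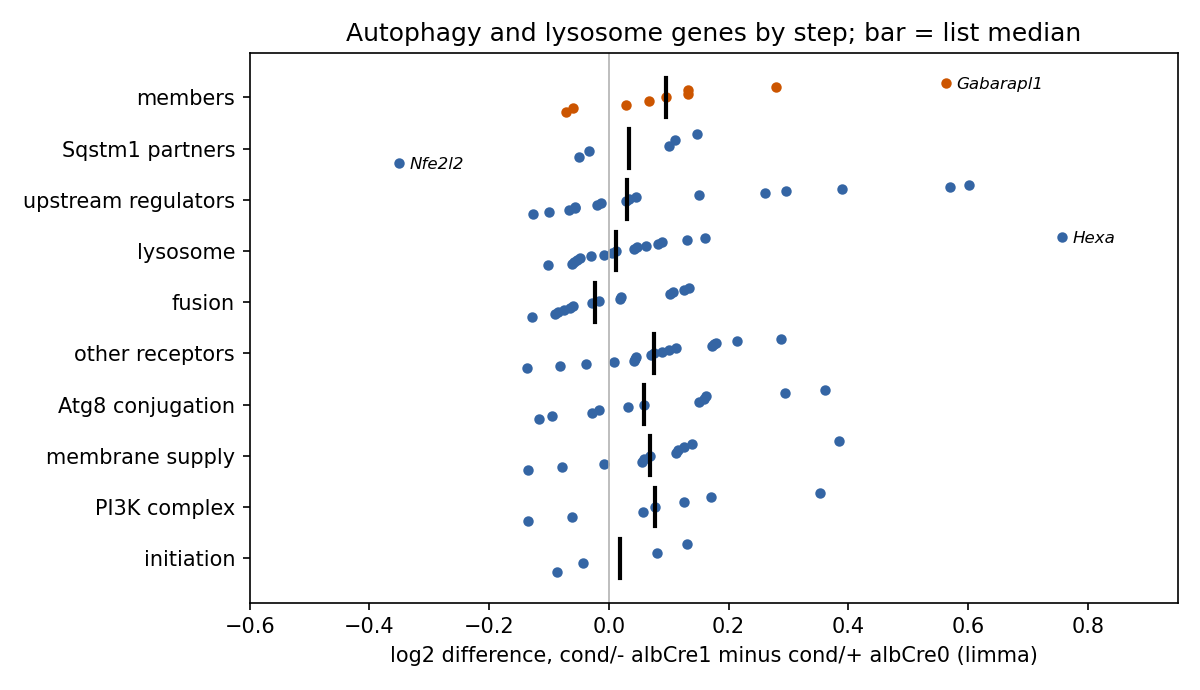
Log2 difference, txnrd1 cond/- albCre1 minus txnrd1 cond/+ albCre0 (x axis, limma), of 103 autophagy and lysosome genes in 9 lists by step of the pathway and of the 9 members (y axis), 1 point per gene, with vertical bars at list medians. List medians lie between -0.02 and 0.10, and Hexa (0.76), Gabarapl1 (0.56) and Nfe2l2 (-0.35) are labelled. The upstream regulators Ddit4 (0.60) and Prkaa1 (0.57), not labelled, lie above Gabarapl1 (limma unadjusted p = 0.419 and 0.0625).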

How the data were processed

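Total RNA of 8 livers was hybridized to Affymetrix mouse expression arrays, 1 for each animal. The submitters' processing notes name RMA and the methods name GeneSpring, with versions not used here. The authors deposited linear ratios with array medians from 0.997 to 0.999 in which a probe set's middle liver sits near 1. Such values drop the signal level, so the study's filter on weak signals was left out, and whether a member lay above background is unknown. Small numbers of arrays limit the precision.

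The fits used 45037 of 45101 probe sets, the other 64 being array controls. They were named through the platform annotation (34945 with 1 symbol, 932 with several, 9160 with none) and RefSeq symbols of GRCm38.p6, and 5 empty values stayed missing. Log2 ratios were fitted with limma 3.58.1 (lmFit, eBayes) in R 4.3.3, per probe set and per gene (the mean over probe sets with 1 symbol), with Benjamini-Hochberg adjustment over all. A call needed an adjusted p of at most 0.05 and 1.5-fold. The methods name these thresholds without a test or an adjustment, so counts at unadjusted p are given too. Single values were tested by exact two-sided permutation over animals. Scripts were tested on simulated data. P-values set a group difference against the spread between these animals, which limma moderates with the spread of all probe sets or genes.

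Named genes were the members, Txnrd1, Keap1, Nfe2l2 and Nqo1. From each other pathway list they were the genes at an unadjusted p of at most 0.05, otherwise the gene with the smallest p. For Gabarapl1 they included its 5 nearest patterns. Ddit4 and Prkaa1 were named afterwards for the size of their differences. The members and lists were chosen with earlier results of these data known. Alternatives left out each animal, changed the gene summary, filter, scaling, weights and thresholds, or tested each feature alone. Figures were drawn with matplotlib 3.10.9. Some listed genes are not reported here.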

Additional observations from a re-analysis of the deposited data

Results flagged for a closer look

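Groups of 4 livers were examined, 30 in all, for the 9 member genes and the 6 probe sets of Gabarapl1, Sqstm1 and Map1lc3a. In them, 4 values lay far from the rest of their group relative to its range. Chance flags about 1 in 20 groups. The groups were not independent, because the gene values of Gabarapl1, Sqstm1 and Map1lc3a are means over these same probe sets. Animal 81 was also highest for all 6 probe sets, so the count of 4 cannot be compared with that rate. Animal 81 lay far above the other cond/- livers for the Sqstm1 gene value, at a log2 ratio of 1.09 with the next liver at 0.01. It did so for the Sqstm1 probe set 1450957_a_at at 0.93, and for the Gabarapl1 probe set 1416418_at at 1.05. The same rule flagged animal 81 as high among the cond/- livers in 0.748% of all genes. That rule sets the gap against the range and asks no minimum size, so this is not the share with a gap as large as that of Sqstm1. Control animal 80 lay far below the other controls for the Gabarapl1 probe set 1416419_s_at, at -0.65.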

How the results depend on the processing

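No paired analysis was possible because the groups share no replicate numbers. No member gene or probe set was called under any alternative that kept the adjusted p. Among these, testing each feature alone called no gene of the whole array, so it could call no member. The SD filter, which kept features with an SD over all arrays above the median, tested only 4 of the 9 member genes. Gabarapl1 stayed above 0 under all 18 refits (1.30-fold to 1.58-fold, limma unadjusted p from 0.00828 to 0.0536, adjusted p from 0.990 to 1.00). For most refits this sign was fixed in advance. Groups without overlap keep it whichever animals are left out. Robust variance, each feature tested alone and the SD filter do not change the estimate of the difference. With an unadjusted p, 1 probe set was called at 1.5-fold, and 2 probe sets and 1 gene with no fold minimum. The count of 2 probe sets at an unadjusted p became 1 with array weights, with each feature tested alone or with the SD filter, 3 with the range of animal numbers as a block, and 0 without animals 71 and 81 together, a setting chosen after seeing the data. Leaving out 1 animal gave 0 to 2 (0 without animal 81, 1 without animal 80 or 82). The count of 1 gene became 0 with each feature alone and 0 to 1 with 1 animal left out (0 without animal 80). For other autophagy genes the count of 4 became 1 with each feature alone, 2 with the SD filter, 1 with the range of animal numbers as a block, 2 with the probe set of largest variance, 6 with quantile normalization or array weights, and 1 to 7 with 1 animal left out (1 without animal 69, 2 without animal 80, 7 without animal 70). The SD filter, which tested 22518 probe sets, brought Txnrd1 1421529_a_at (log2 1.11) to an adjusted p of 0.0429. Without animals 71 and 81 the log2 difference turned to -0.048 for Sqstm1 (probe sets 1444021_at -0.0057, 1450957_a_at -0.090), -0.12 for Map1lc3a (1447883_x_at -0.13, 1451290_at -0.11), -0.25 for Sqstm1 minus Nbr1 and -0.17 for Map1lc3a minus Map1lc3b. Gabarap was -0.011 with the block and Ulk1 0.021 with the probe set of largest variance. With 1 animal left out, the ranges were -0.0056 to 0.39 for Sqstm1 (1450957_a_at -0.034 to 0.31), -0.073 to 0.25 for Map1lc3a (1447883_x_at -0.078 to 0.31, 1451290_at -0.068 to 0.23), -0.0098 to 0.065 for Gabarap, -0.22 to 0.14 for Ulk1, -0.16 to 0.25 for Sqstm1 minus Nbr1, -0.13 to 0.16 for Map1lc3a minus Map1lc3b and 0.34 to 0.64 for Gabarapl1 minus Gabarapl2 (exact permutation p = 0.0286 without animal 73). The cause of these changes was not tested. The ratios keep no signal over background, which limits what can be said of weak probe sets.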
